A study of Mus musculus with 22 samples.

Results

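The 10 genes described here encode chaperones and folding factors of the endoplasmic reticulum (ER), together with regulators of the same response: Hspa5, Herpud1, Dnajb9, Xbp1, Sdf2l1, Pdia4, Hsp90b1, Calr, Creld2 and Manf. They are 10 of 20018 genes with a named probe on the array, and a member is a probe whose accession maps to 1 of these symbols. The set was selected on the log2 ratios of the control and dosed arrays reported here, so the differences between groups below are a description of the values that chose it and carry no test. The 10 genes have 11 probes, 2 of them for Dnajb9, and each gene is given by its brightest probe. All 10 brightest probes were well above background in the Cy5 channel on all 22 arrays.

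FE1 is a lung epithelial cell line derived from the transgenic Muta Mouse, and every array comes from this 1 line. Cells grown in a low-serum medium with murine epidermal growth factor received Mitsui7, a multiwalled carbon nanotube, for 24 h at 12.5 µg/ml (D1, low dose, n = 6), 25 µg/ml (D2, medium dose, n = 5) or 100 µg/ml (D3, high dose, n = 6), and control cells (n = 5) received medium without nanotubes. RNA of each sample was labelled with Cy5 and hybridised against Universal Mouse Reference RNA, a pool from several mouse cell lines, labelled with Cy3. The value of a gene is the log2 ratio of sample to reference after loess normalisation within the array. It is relative to the reference of that gene, so levels were compared between groups and not between genes.

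Proteins that enter the secretory pathway fold in the ER, where Hspa5 (BiP, the ER Hsp70) and Hsp90b1 (Grp94, the ER Hsp90) bind unfolded chains, calreticulin (Calr) holds glycoproteins and calcium, and protein disulfide isomerases such as Pdia4 form disulfide bonds. When unfolded protein builds up, the sensors Ern1 (IRE1), Atf6 and Eif2ak3 (PERK) set off the unfolded protein response. Ern1 splices Xbp1 mRNA and Atf6 is cut by proteases to release transcription factors that raise chaperone genes, while Eif2ak3 slows translation and raises Atf4 and its targets. Dnajb9 (ERdj4) and Sdf2l1 are cofactors of Hspa5, Herpud1 acts in ER-associated degradation, and Creld2 and Manf are small secretory pathway proteins that are induced by ER stress.

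Some of the promoters carry elements by which this response is usually read. RefSeq promoter windows of GRCm38.p6, running from 250 bases before the annotated start to 50 bases after it, were found for 9 of the 10 genes and not for Manf. The ER stress response element (ERSE), searched on both strands as CCAAT, any 9 bases, then CCACG, was in 0.119% of 32851 promoters and in 4 of the 9 members (Hspa5, Hsp90b1, Calr and Creld2). Hsp90b1 held it at 2 places. The related ERSE-II, searched as ATTGG, any 1 base, then CCACG, was in 0.0365% of promoters and in 1 member, Herpud1. The core of the unfolded protein response element, TGACGTGG, was in 0.676% of promoters and in 0 members. The ATF4 element, searched as TGATG, any 1 base, then AA, was in 3.97% of promoters and in Herpud1 among the members. The elements were picked as known ones of this response, to which the members belong. Their counts beside all promoters are therefore a description and carry no test. The stretches before the start site that hold ERSE (4 genes) or ERSE-II (Herpud1) are shown, as each of these 5 genes holds one or the other of these related elements. Each is written 5′ to 3′ on the strand of the gene, and capitals mark the fixed letters of the match, which reads as its reverse complement (CGTGG, 9 bases, ATTGG) where the element lies on the opposite strand. Hspa5 is at chr2:34771965-34772089 (plus strand), Hsp90b1 at chr10:86705473-86705694 (minus strand), Calr at chr8:84847015-84847153 (minus strand), Creld2 at chr15:88819460-88819598 (plus strand) and Herpud1 at chr8:94386317-94386428 (plus strand).
Hspa5: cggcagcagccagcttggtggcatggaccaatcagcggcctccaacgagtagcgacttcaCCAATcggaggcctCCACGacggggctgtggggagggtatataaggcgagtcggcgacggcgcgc
Hsp90b1: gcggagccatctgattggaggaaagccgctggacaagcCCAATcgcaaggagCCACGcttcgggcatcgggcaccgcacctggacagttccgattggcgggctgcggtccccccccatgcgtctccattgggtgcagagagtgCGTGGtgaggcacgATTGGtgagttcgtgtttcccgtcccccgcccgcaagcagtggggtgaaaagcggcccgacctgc
Calr: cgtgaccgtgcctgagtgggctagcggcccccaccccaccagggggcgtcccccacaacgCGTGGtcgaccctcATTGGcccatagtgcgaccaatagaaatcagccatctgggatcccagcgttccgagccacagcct
Creld2: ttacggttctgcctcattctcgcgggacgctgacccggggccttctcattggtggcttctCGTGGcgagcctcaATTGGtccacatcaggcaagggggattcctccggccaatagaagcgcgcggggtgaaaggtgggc
Herpud1: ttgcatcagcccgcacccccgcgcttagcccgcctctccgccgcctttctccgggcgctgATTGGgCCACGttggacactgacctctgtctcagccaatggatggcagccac

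Counted in bases from the annotated start, the ERSE of Hspa5 began at -65, that of Creld2 at -126, that of Calr at -162 and those of Hsp90b1 at -212 and -107. The ERSE-II of Herpud1 began at -52. The match in Creld2 is the same stretch of DNA as a match in the promoter window of Alg12, and the match in Calr is shared with that of 1700122E12Rik. A match is a description of the letters and was not tested as a binding site.

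**Figure D1:**
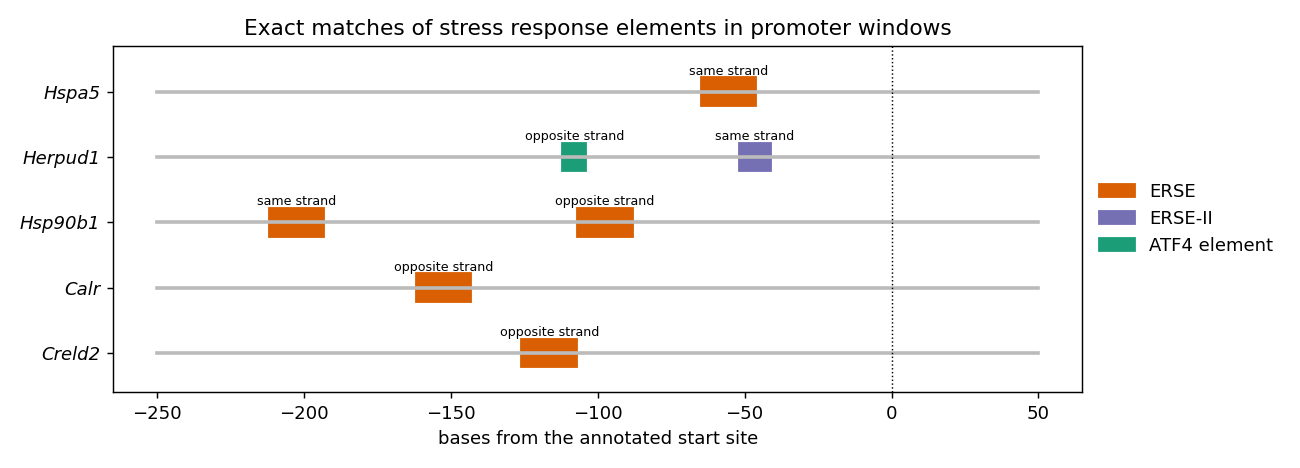
Position of exact element matches in the promoter windows of the 5 members that hold one, in bases from the annotated start site (dotted line), with colour for the element and the strand relative to the gene written above each box. All matches lie between -212 and the start, and Hsp90b1 holds 2 ERSE.

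Arrays differed in ways that bear on these values. Detected probes ranged from 24185 to 38531 per array and did not separate the groups (permutation test over arrays, 100000 resamples, p = 0.756, and p = 0.508 within slides). The arrays lay on 5 slides, each with its own scan. Slide 1 held 2 arrays of each group, and slides 2, 3 and 4 held 1 array of each group. Slide 5 held 1 array of D1 and 1 of D3. Fitted differences therefore include slide as a term, as the methods of the study do. The cells were checked against markers of the labelled type. Of 5 epithelial markers, Krt18 was well above background on 22 arrays, Krt8 on 21 and Krt19 on 20, whereas Cdh1 (E-cadherin) and Epcam were so on 0. All 5 fibroblast markers (Col1a1, Col1a2, Col3a1, Dcn and Pdgfra) were well above background on all 22 arrays. Of the alveolar type II markers, Abca3 and Lamp3 were so on 22 arrays, Sftpc on 14, Sftpd on 7, and Sftpb and Sftpa1 on 0. The club cell marker Scgb1a1 was so on 18. Of the endothelial markers, Kdr was so on 22, Pecam1 on 21 and Cdh5 on 0. Among leukocyte markers, Ptprc was so on 19, Adgre1 on 11 and Lyz2 on 1.

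The members were lower in the exposed cells, most of them at every dose. Relative to control, the median difference of the 10 genes was -0.54 on the log2 scale at D1, -0.67 at D2 and -0.87 at D3, where the median of all genes tested was 0.00 at D1, 0.00 at D2 and 0.01 at D3. The fitted difference was below 0 for 10 of 10 genes at D1, 8 of 10 at D2 and 10 of 10 at D3. By the rule used for all genes (limma adjusted p of 0.05 or less, a change of 1.5-fold or more, detected on 4 or more arrays of a group), 4 of the 10 members were called lower at D1 against 3.06% of 13650 genes, 5 at D2 against 4.67% of 13500, and 7 at D3 against 6.44% of 14038. None was called higher. The D1 count was 2 without control replicate 1 and 0 without slide 1. After subtracting slide, every dosed array was below every control array for 6 members at D1 (8.69% of all genes), 5 at D2 (10.9%) and 7 at D3 (13% of all genes). Because the set was selected on these ratios, nothing is read from these counts. In bulk RNA a lower level per cell and fewer cells of a type that expresses a gene cannot be told apart.

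**Figure D2:**
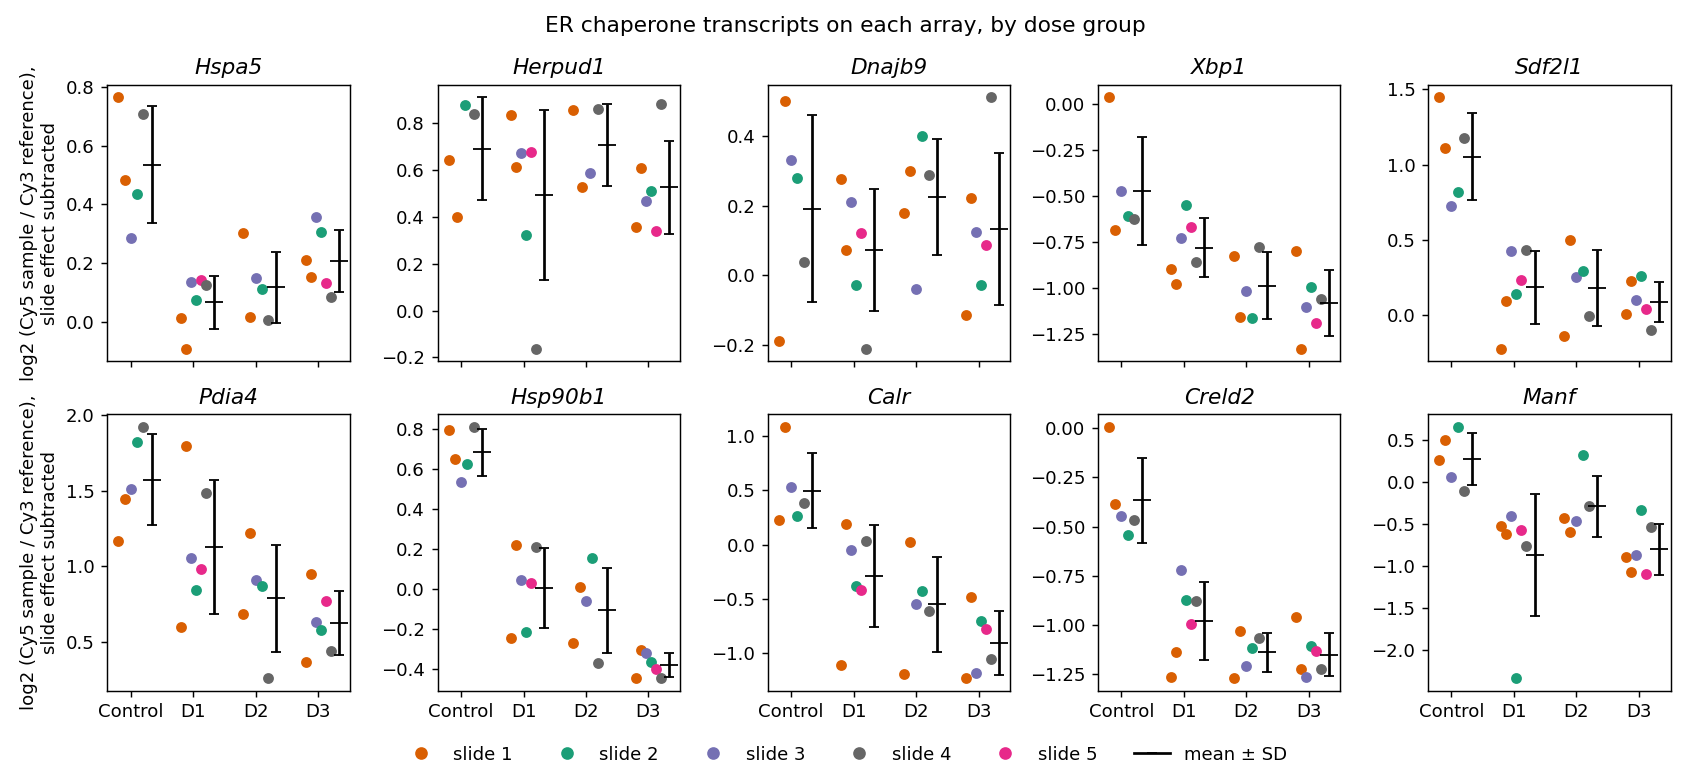
Log2 ratio of Cy5 sample to Cy3 reference for the brightest probe of each member on each array, by dose group, with the slide effect subtracted, points coloured by slide and the mean ± SD beside them; vertical scales differ between panels. Hsp90b1, Calr, Creld2 and Sdf2l1 show no overlap between control and any dose, while Herpud1 and Dnajb9 overlap at every dose.

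Calr, Manf and Hsp90b1 stood furthest below control at the high dose. Hsp90b1 had log2 ratios of 0.45, 0.30, 0.54, 0.84 and 1.16 in the 5 control arrays. It ran from -0.59 to 0.55 with a median of 0.03 at D1, was -0.62, -0.34, -0.06, 0.37 and -0.03 at D2, and ran from -0.79 to -0.10 with a median of -0.24 at D3. All 6 D3 arrays were below all controls, and D1 and D2 overlapped with the controls before slide was subtracted but not after it. The fitted difference of Hsp90b1 was -0.68 ± 0.11 (SE) at D1, -0.79 ± 0.11 at D2 and -1.06 ± 0.11 at D3, where the control level was 2.09-fold that of D3.

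Calr, the lectin chaperone, had log2 ratios of -0.24, 0.62, 0.45, 0.60 and 0.69 in the controls, and replicate 1 stood low there. At D2 the 5 values were -1.66, -0.44, -0.63, -0.09 and -0.31, and replicate 1 was again the lowest, as it was at D1 (-1.57) and D3 (-1.70). The D3 median was -0.85 with a highest value of -0.05, so that 5 of 6 D3 arrays lay below every control. With slide subtracted, no dosed array of Calr reached the lowest control. The fitted difference of Calr was -0.79 ± 0.24 (SE) at D1, -1.05 ± 0.25 at D2 and -1.41 ± 0.24 at D3, the last being the largest of the 10 members on this scale.

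Hspa5, the chaperone most often used to follow the unfolded protein response, differed less. Its log2 ratios were 0.68, 0.40, 0.35, 0.48 and 0.74 in the controls and 0.22, -0.07, 0.21, 0.16 and 0.04 at D2. The range was -0.18 to 0.20 at D1 (median 0.14) and 0.07 to 0.42 at D3 (median 0.15). D1 and D2 did not overlap with the controls in these ratios, and 4 of 6 D3 arrays lay below them. The fitted difference was -0.47 ± 0.10 (SE) at D1, -0.42 ± 0.10 at D2 and -0.33 ± 0.10 at D3, always under 1.5-fold, so Hspa5 was called at no dose. It was also the member whose distance from control shrank at each step of dose, although D3 minus D2 was only 0.09 ± 0.10.

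The Hspa5 cofactors went separate ways. Sdf2l1 had control values of 2.82, 2.48, -0.23, -0.07 and 0.49, of which the first 2 are the arrays of slide 1. At D2 it had 1.23, 1.87, -0.70, -0.59 and -0.69, again with slide 1 first. D3 ran from -0.86 to 1.60 (median -0.51) and D1 from -0.74 to 1.46 (median -0.23). With slide subtracted no dosed array reached the lowest control, and the fitted difference was -0.87 ± 0.15 (SE) at D1, -0.87 ± 0.15 at D2 and -0.97 ± 0.15 at D3. Without slide 1 the D1 difference was -0.58 ± 0.15. Within each of the 4 slides that hold controls, Sdf2l1 was lower than control at every dose, by -1.34 to -0.29 at D1 and by -1.27 to -0.56 at D3. The -1.34 was on slide 1, where its Cy3 reference signal was 422 and 464 on the controls and 674 and 655 on D1. How far this changed the difference was not tested.

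Dnajb9, the DnaJ partner that also binds Ern1, had control values of -0.33, 0.36, 0.56, 0.37 and -0.20 and D2 values of 0.04, 0.16, 0.19, 0.49 and 0.05. The D1 arrays ran from -0.45 to 0.50 and the D3 arrays from -0.25 to 0.46. All groups overlapped, and the fitted difference was -0.12 ± 0.14 (SE) at D1, 0.03 ± 0.14 at D2 and -0.06 ± 0.14 at D3. Its second probe was dimmer, well above background on 12 arrays, and gave -0.25 ± 0.15, -0.11 ± 0.15 and -0.19 ± 0.15 at the 3 doses.

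The disulfide isomerase Pdia4 showed the widest spread between slides. Its control values were 3.56 and 3.84 on slide 1 and -0.26, 0.54 and 0.78 on the other slides, and its D2 values were 3.07, 3.61, -0.86, -0.41 and -0.87 in the same order of replicates. D3 ran from -1.14 to 3.34. The step lay in the reference channel. The Cy3 signal of Pdia4 was 57.5 to 102 on the 8 arrays of slide 1 and 374.5 to 1799 on the other 14, whereas its Cy5 signal was 426 to 1485 and 316 to 2077. Sdf2l1 showed a smaller step of the same kind, with Cy3 at 422 to 734 on slide 1 and 808 to 3019 elsewhere. The ratio of slide 1 minus that of the other slides was 3.78 for Pdia4 and 2.19 for Sdf2l1. These gaps ranked 2 and 12 from the top among 10666 genes detected on all arrays, 15 of which had a gap over 2. The other 8 members had gaps of -0.69 to 0.50. What set the reference signal on slide 1 was not tested.

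**Figure D3:**
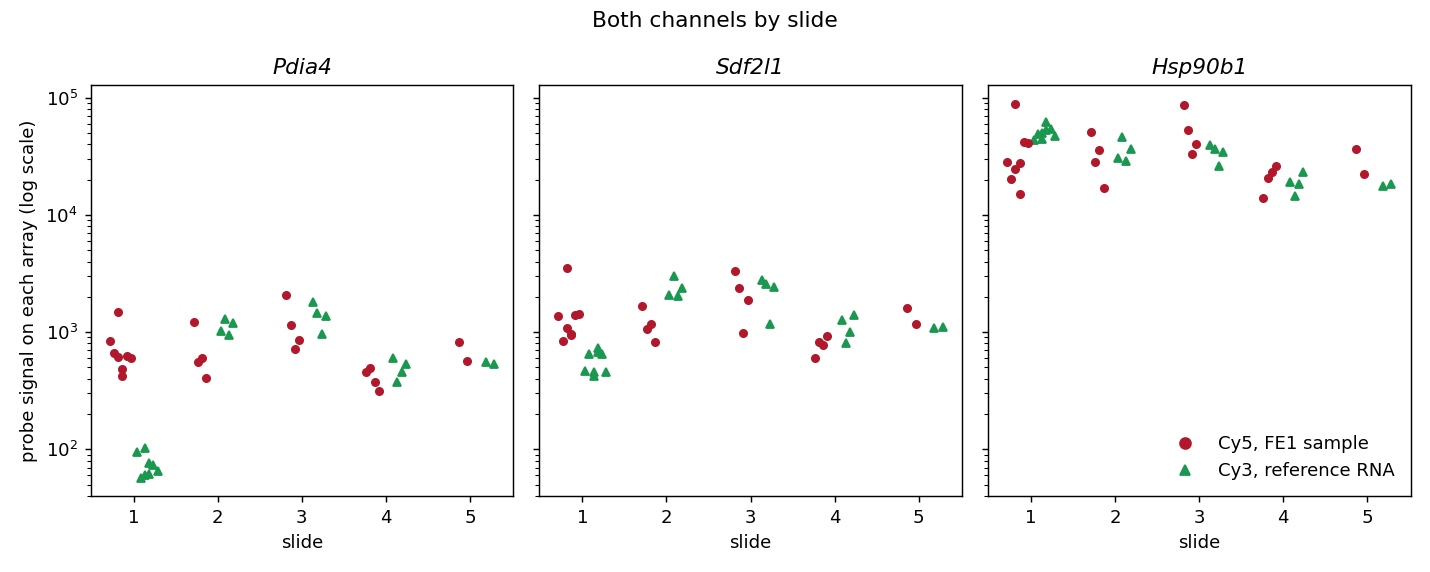
Cy5 sample signal (circles) and Cy3 reference signal (triangles) on a log scale for each array by slide, for Pdia4, Sdf2l1 and, as a member without such a step, Hsp90b1. The Cy3 signal of Pdia4 lies at 57.5 to 102 on slide 1 and at 374.5 or above elsewhere, while its Cy5 signals overlap between slides.

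Each slide but slide 5 holds controls, so a step shared by all arrays of a slide cancels within it. On slide 1, however, the Cy3 signal of Pdia4 was faint. It went from 102 on control replicate 1 (median of all probes 50) to 57.5 on D1 replicate 2 (median 62). No background was subtracted, so the ratios of slide 1 rest on a reference near background. How far this changed the differences on slide 1 was not tested. Pdia4 was lower than the controls of its slide on 4 of 4 slides at each dose, by -0.98 to -0.11 at D1, -1.66 to -0.36 at D2 and -1.48 to -0.65 at D3. The smallest difference at each dose was that of slide 1. The fitted difference was -0.45 ± 0.21 (SE) at D1, -0.78 ± 0.21 at D2 and -0.95 ± 0.21 at D3. Without slide 1 it was -0.67 ± 0.20 at D1, -1.07 ± 0.21 at D2 and -1.15 ± 0.20 at D3.

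The secreted members Creld2 and Manf were lower at every dose. Creld2 had control values of 0.14, -0.25, -0.50, -0.68 and -0.52, and D2 values of -1.13, -0.90, -1.26, -1.26 and -1.12. D1 ran from -1.13 to -0.77 and D3 from -1.32 to -0.83, so no dosed array overlapped with a control. Fitted with slide, Creld2 differed by -0.61 ± 0.11 (SE) at D1, -0.77 ± 0.12 at D2 and -0.78 ± 0.11 at D3. Control replicate 1 stood high, and without slide 1, which holds it, the D1 difference was -0.37 ± 0.11.

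Manf had control values of 0.36, 0.60, 0.10, 0.30 and -0.17 and D2 values of -0.33, -0.49, -0.41, -0.03 and -0.35. D1 ran from -2.69 to -0.23 (median -0.47) and D3 from -0.96 to -0.60 (median -0.78). No array of D1 or D3 reached the lowest control, and 1 of 5 D2 arrays did. The lowest D1 value was replicate 4, whose Cy5 signal of 501 was the lowest of all 22 arrays, with a Cy3 signal of 5473. The fitted difference was -1.14 ± 0.29 (SE) at D1, -0.56 ± 0.29 at D2 and -1.07 ± 0.29 at D3. Without D1 replicate 4 the D1 difference was -0.70 ± 0.13, and the SE at D3 became 0.12. Without slide 1 the D2 difference was -0.34 ± 0.44.

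Xbp1, the transcription factor whose mRNA Ern1 splices, had control values of 0.35, -0.37, -0.46, -0.78 and -0.91 and D2 values of -0.51, -0.85, -1.0, -1.33 and -1.07. It ran from -1.15 to -0.59 at D1 and from -1.53 to -0.49 at D3. The groups overlapped in these ratios. With slide subtracted, D2 and D3 lay below all controls and D1 did not. Its fitted difference was -0.31 ± 0.14 (SE) at D1, -0.52 ± 0.14 at D2 and -0.61 ± 0.14 at D3. The D1 difference was -0.17 ± 0.12 without control replicate 1 and -0.12 ± 0.13 without slide 1. The probe gives a level of Xbp1 RNA, and splicing was not measured here.

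Herpud1, the ER membrane protein of the degradation pathway, was the other member that stayed near control. It had no value on control replicate 3 and D2 replicate 4, where the scanner marked the spot as an outlier. The remaining controls were 0.73, 0.49, 0.72 and 0.60 and the remaining D2 arrays 0.94, 0.62, 0.86 and 0.62, while D1 ran from -0.41 to 0.94 and D3 from 0.26 to 0.73. The fitted difference was -0.20 ± 0.17 (SE) at D1, 0.02 ± 0.18 at D2 and -0.16 ± 0.17 at D3, with overlap at every dose. Without slide 1 the D1 difference was -0.52 ± 0.25, and with the ratio of the scanner software it was 0.13 ± 0.14.

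**Figure D4:**
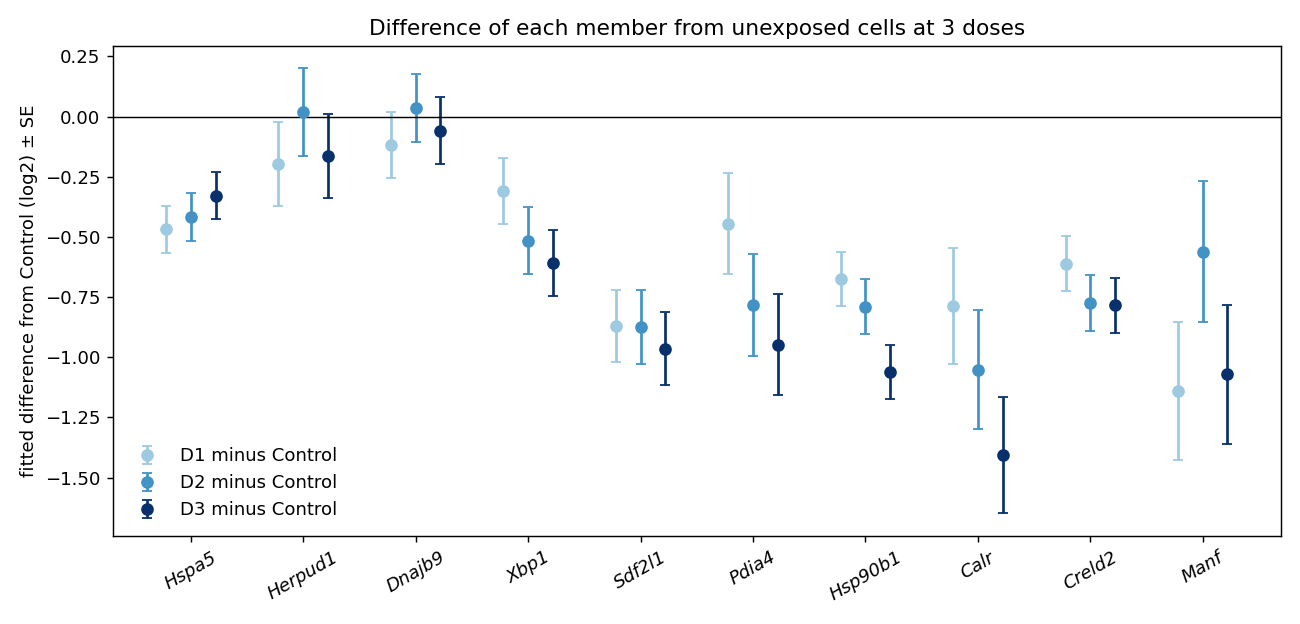
Fitted log2 difference from control ± SE for each member at D1, D2 and D3, from the model with group and slide. Calr, Hsp90b1, Pdia4, Xbp1, Creld2 and Sdf2l1 lie lower at each higher dose, Hspa5 lies closer to 0 at each higher dose, and Herpud1 and Dnajb9 lie within 0.20 of 0.

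Between doses the median difference of the 10 genes was -0.06 for D2 minus D1, -0.13 for D3 minus D2 and -0.13 for D3 minus D1. Leaving out single arrays moved D2 minus D1 from -0.14 (without D1 replicate 1) to 0.02 (without D2 replicate 5) and D3 minus D1 from -0.21 (without D1 replicate 1) to -0.07 (without D1 replicate 3). The groups were ordered control, D1, D2, D3 from high to low for Calr, Hsp90b1, Pdia4, Xbp1, Creld2 and Sdf2l1, and neighbouring doses of these genes overlapped after slide was subtracted. The widest steps from D1 to D3 were -0.62 ± 0.22 (SE) for Calr, -0.50 ± 0.20 for Pdia4 and -0.39 ± 0.10 for Hsp90b1. For Hsp90b1 every D3 array lay below every D1 array once slide was subtracted. Manf had its highest dosed level at D2, with D2 minus D1 at 0.58 ± 0.29, a step that includes the low D1 replicate 4.

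Within groups the correlations between members ran in both directions, with a median close to that of other genes. Over the 45 pairs of members, the Pearson correlation of what the model left unexplained on the 22 arrays had a median of 0.02, and 24 pairs were above 0. Pairs among every 5th of 9057 other genes detected on all arrays had a median of 0.01, with 5th and 95th percentiles of -0.64 and 0.68. Sdf2l1 with Hsp90b1 (r = 0.71), Pdia4 with Hsp90b1 (r = 0.71) and Sdf2l1 with Creld2 (r = 0.68) were the highest pairs, and Xbp1 with Pdia4 (r = -0.68) the lowest. The median of the members was 0.57 with median centring in place of loess, and that of the other genes was then also 0.57. The arrays shared slides and reference RNA, and these correlations carry no test.

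By their profile over all 22 arrays, after slide means were removed, the genes most like the mean of the members were Id1 (r = 0.96), Pradc1 (r = 0.96), Nrn1 (r = 0.96), Pdgfra (r = 0.96) and Mindy2 (r = 0.96), out of 9988 genes compared. Their fitted differences at D3 were -1.83, -1.13, -1.94, -1.53 and -1.37. Among the members themselves the correlation with this mean was 0.96 for Hsp90b1 and 0.91 for Sdf2l1, but 0.17 for Herpud1 and 0.13 for Dnajb9. Each member is itself part of this mean. Group differences were left in the profile and are those on which the set was selected, so a gene that falls with dose scores high. These correlations are a description and carry no test.

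Other genes of the ER, in lists that the members are not part of, were compared to show how far the pattern extended. Of 21 other ER folding genes tested at D3, 6 fell (6.44% of all genes were called lower) and 1 rose (5.46% called higher). The median difference was -0.51 against 0.01 for all genes. The other 14 were not called, some of them for the fold threshold alone, such as Canx at -0.51 (limma adjusted p = 0.00457). The genes that fell were Pdia6, Dnajc3, P4hb, Pdia5, Erp44 and Dnajc10. Pdia6, a disulfide isomerase that binds Hspa5, fell by 1.28 ± 0.11 (SE) on the log2 scale (limma adjusted p = 1.81e-07). Dnajc3 (p58IPK), an Hspa5 cofactor and inhibitor of Eif2ak3, fell by 1.15 ± 0.11 (adjusted p = 3.97e-07). P4hb, the main disulfide isomerase, fell by 1.15 ± 0.26 (adjusted p = 0.00596). These 3 genes were also the ones called lower at D1 and at D2, although P4hb lost its call when any of 5 arrays was left out at D1 and any of 7 at D2 (adjusted p of 0.0544 to 0.133), and all their dosed arrays lay below all controls after slide was subtracted. Against this, Ero1a, the oxidase that recharges disulfide isomerases, rose by 0.80 ± 0.23 at D3 (adjusted p = 0.0332), a call that was lost when any of 8 arrays was left out (adjusted p of 0.0534 to 0.111).

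Of 20 genes of ER-associated degradation, 1 fell and 0 rose at D3, the median difference was -0.01, and 11 were below 0. The called count, and the 1 that follows for translocation, lay no higher than the share of all genes called lower (6.44%). The gene that fell was Selenos, a partner of the retrotranslocation machinery, by 1.00 ± 0.08 (SE) (adjusted p = 1.1e-07). Of 16 genes of translocation and signal peptidase, 1 fell at D3 and 0 rose, with a median of -0.37. It was Sec61b, a subunit of the translocation channel, which fell by 0.78 ± 0.10 (adjusted p = 2.64e-05). Over these lists and the sensors together, 5 of 68 genes fell at D1 (3.06% of all genes), 4 at D2 (4.67%) and 10 at D3 (6.44%). At D1 3 fell without control replicate 1, D1 replicate 4 or D1 replicate 6, and 2 without slide 1, and 16 fell at D3 when the replicate number replaced slide as the block.

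The sensors themselves did not move one way. Atf6 rose at each dose, by 0.64 ± 0.12 (SE) at D1, 0.71 ± 0.12 at D2 and 0.69 ± 0.12 at D3 (adjusted p = 0.000679 at D3), higher on 6 of 6 D3 arrays than on any control after slide was subtracted. Without control replicate 1 its difference was 0.54 at D1 and 0.58 at D3, under 1.5-fold. Eif2ak3 differed by -0.43 ± 0.11 at D1 and -0.49 ± 0.11 at D2, under 1.5-fold, and fell by 0.60 ± 0.11 at D3 (adjusted p = 0.00106). Without control replicate 1, control replicate 4 or D3 replicate 2 it was under 1.5-fold, at -0.52 to -0.58. Ern1 rose by 1.20 ± 0.31 at D1 (adjusted p = 0.0445), and its difference of 0.92 ± 0.31 at D3 did not pass the test (adjusted p = 0.0929). The D1 call was lost when any of 10 arrays was left out, with adjusted p of 0.0505 to 0.187, and under 13 of 15 other settings, among them median centring and the removal of any slide. Without D1 replicate 4 the D1 difference was 0.70, and at D3 the adjusted p was then 0.002. Of the Atf6-like factors, Creb3l1, known for its role in collagen secretion, fell by 1.06 ± 0.26 at D3 (adjusted p = 0.0128), and Creb3l2 rose by 0.71 ± 0.19 (adjusted p = 0.0196). Creb3l1 was not called without D3 replicate 3 (-0.91, adjusted p = 0.0538), nor Creb3l2 without control replicate 4 or 5 or D3 replicate 1 or 6 (adjusted p of 0.0521 to 0.0842). The other 6 sensor and processing genes, Atf6b, Mbtps1, Mbtps2, Creb3, Wfs1 and Tmbim6, were called at no dose, with differences of -0.47 for Tmbim6 to 0.33 for Wfs1 at D3.

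The arm of the response that runs through Eif2ak3 and other kinases to Atf4 stood in contrast to the chaperones. Of 12 genes of the ATF4 arm, 8 rose at D1 (2.21% of all genes were called higher), 9 at D2 (4.27%) and 9 at D3 (5.46%), 0 fell, and the median difference was 1.13, 1.19 and 1.33. Atf3, a stress-induced transcription factor, rose by 3.17 ± 0.16 (SE) at D3 (adjusted p = 3.31e-10), which is 8.97-fold. Chac1, a glutathione-degrading enzyme, rose by 2.37 ± 0.18 (adjusted p = 4.05e-08), and Trib3, a pseudokinase, by 2.09 ± 0.22 (adjusted p = 2.64e-06). All dosed arrays of these 3 genes, named for the largest changes at D3, lay above all controls after slide was subtracted. The share of all genes with dosed arrays above all controls was not counted, for these genes or for Atf6.

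Of 14 cytosolic heat shock genes, 0 were called at any dose by limma, and 0 by the ordinary linear model. At an unadjusted p under 0.05 there were 1, 3 and 4 genes at the 3 doses, and the median difference was 0.02, -0.01 and -0.02.

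**Figure D5:**
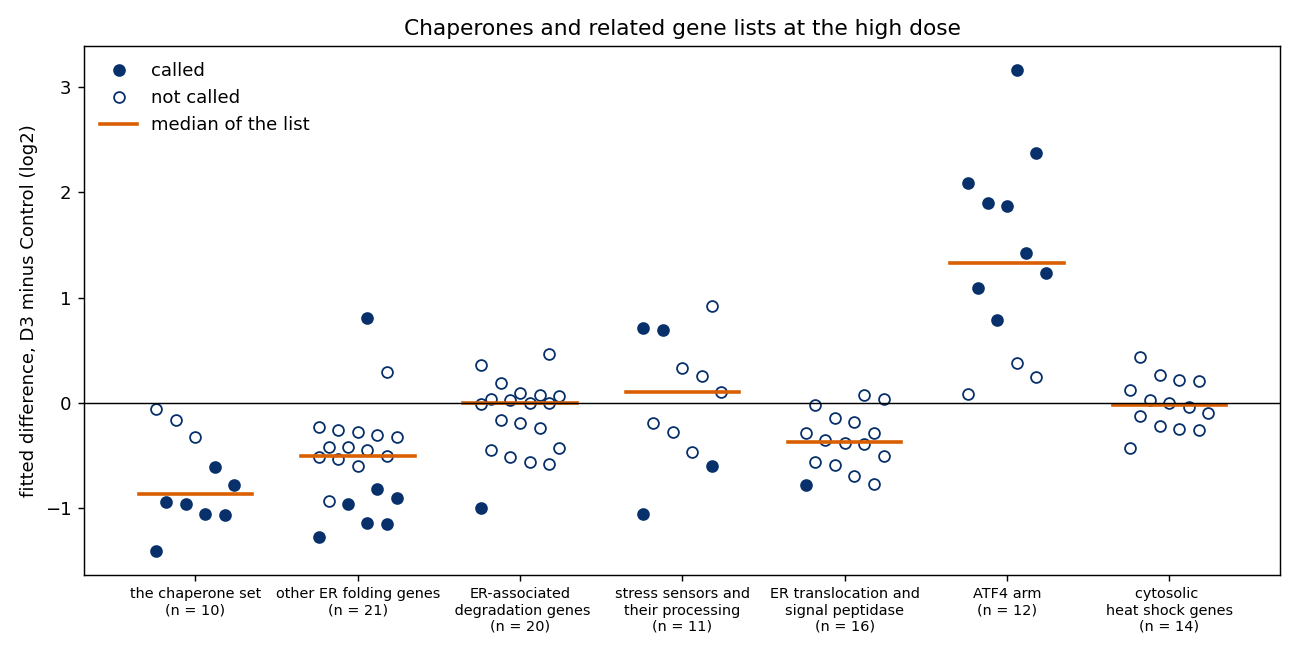
Fitted log2 difference of D3 minus control for each gene of the chaperone set and of the 6 related lists, with filled points for called genes and a bar for the median of the list. The chaperone set and the other ER folding genes lie mostly below 0 (medians -0.87 and -0.51), the ATF4 arm lies above 0 (median 1.33) and the cytosolic heat shock genes lie around 0.

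Genes outside the set that hold an ERSE in their promoter window were few. Of 15 such genes tested at D3, 10 were below 0 (48.7% of all genes) and 2 fell (6.44% of all genes), Pdia6 and Dnajc3, with a median of -0.17 against 0.01 for all genes outside the set. Spats2l was at -0.71 ± 0.27 (SE) and did not pass the test (limma adjusted p = 0.134). Syvn1, the ligase of ER-associated degradation, was just under the threshold of fold at -0.58 ± 0.10. Canx, the membrane-bound relative of Calr, was at -0.51 ± 0.11. Alg12, which shares its ERSE with Creld2, was at -0.08 ± 0.15, and Derl3 was at 0.06 ± 0.18. Members with an ERSE ranged from -0.33 (Hspa5) to -1.41 (Calr) at D3, and members without an exact match included both Sdf2l1 (-0.97) and Dnajb9 (-0.06).

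Fibroblast markers were also lower in the exposed cells. All 5 were called lower at each dose, with a median difference of -0.88 at D1, -1.35 at D2 and -1.53 at D3. Their mean log2 ratio per array, with slide subtracted, was 0.27 to 0.73 in the controls, -0.92 to -0.35 at D1, -1.09 to -0.78 at D2 and -1.38 to -0.94 at D3. The mean of the members was 0.34 to 0.51 in the controls, -0.30 to 0.07 at D1, -0.21 to -0.02 at D2 and -0.35 to -0.19 at D3. Only 3 of 5 epithelial, 2 of 3 leukocyte and 2 of 3 endothelial markers passed the detection filter at each dose. None of these was called at any dose, and the rest could not be called. Of 6 alveolar type II markers, 3 passed the filter at D1 and 4 at D2 and D3. Of these, 1 was called higher at D2 and 1 at D3, where it was Lamp3. The members were selected on the ratios of these groups, so any gene that falls with dose goes along with them. Pdgfra is both 1 of the 5 fibroblast markers and 1 of the 5 genes most like the members. The part of these markers in the values of the members was not tested.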

How the data were processed

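FE1 RNA was hybridised to 22 Agilent 2-colour mouse arrays of 62976 spots, the sample in Cy5 and reference RNA in Cy3 on each, with no dye swap. The deposited files give, for every spot, a median intensity per channel and a log10 ratio that the scanner software made with its own background and dye correction. Log2 ratios processed by the authors are in the series matrix, from a normalization not given in the sources used here. Per the file headers the software was Feature Extraction 10.7.3.1, and the array grid was annotated on mm9, so GRCm38.p6 served only for names and promoter sequence.

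From the intensities, control spots (3671) were left out, spots marked as outliers were given no value, and the log2 ratio of Cy5 to Cy3 was loess-normalised array by array with no background subtracted. Replicate spots were combined by their median. A probe was detected where its Cy5 signal was over a limit set by 308 negative control spots (their 5% trimmed mean and 3 trimmed SDs above it). Signals are not counts, so the number of arrays limits the precision. Accessions matched for 26413 of 55681 probes.

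Groups were compared with lmFit and eBayes of limma 3.58.1 (R 4.3.3). A single model held every array, with terms for group and slide, and took the place of the study's shrinkage test. Benjamini-Hochberg adjustment ran over the whole set of probes. Genes were called at an adjusted p of 0.05 or less and 1.5-fold or more, if detected on 4 or more arrays of a group. The methods name separate experiments but do not assign arrays to them, so p-values measure the spread between these samples, which may be technical. All 31 pairs of arrays that share a number across groups deviated together from their group means (correlation over genes 0.16 or more), and 27 of these pairs shared a slide. The numbers were therefore used as a block in an alternative fit. Unless that block is named, the SEs, calls and overlaps given here come from the model with slide and do not use this pairing. With the replicate block, Calr at D1 differed by -0.72 ± 0.14 (SE).

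The members and the gene lists were chosen with earlier results of these data known. All members are named. From each list the 3 called genes with the largest change at D3 were named, with all sensors, and genes beyond these were named where a count or a promoter match singled them out, after their values were seen. The genes most like the members are the 5 with the highest correlation. Alternatives covered normalisation, background, the scanner ratio, the authors' matrix, marked spots, the slide term, the replicate block, the groups in the model, thresholds, filters and leaving out each array or slide.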

Additional observations from a re-analysis of the deposited data

Results flagged for a closer look

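Among 40 groups of member values with slide subtracted, 2 held an array far from the others, and chance alone marks about 1 in 20 groups. For Manf at D1, replicate 4 was at -2.33, whereas the other 5 arrays lay between -0.76 and -0.40. Its difference from control at D1 was -0.70 without that array. For Creld2, control replicate 1 was at 0.00625, whereas the other 4 controls lay between -0.54 and -0.39.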

How the results depend on the processing

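The median difference of the members from control stayed below 0 in all 111 alternatives (-0.90 to -0.50), and no called value changed sign. It moved by more than the spread between replicates at D1 with median centring (-0.70) and, without slide 1, at D2 (-0.53) and D3 (-0.75). Between D2 and D1 it was 0.19 with median centring. The median correlation of the members within groups was 0.57 with median centring.

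Counts at the threshold depended more on the setting. Members called lower numbered 2 at D1, 2 at D2 and 4 at D3 with median centring. They numbered 1, 2 and 4 without a slide term, and 1, 1 and 3 with a 2-fold threshold. At D1 they numbered 2 with only the 2 groups compared and 0 without slide 1. At D2 they numbered 3 with slide as a random block, without slide 3 and with the ordinary linear model. Leaving out single arrays gave 2 to 4 at D1.

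Genes of the 4 ER lists called lower numbered 2 at D1 and 0 at D2 with median centring, and 1, 0 and 4 with a 2-fold threshold. With no fold threshold they numbered 12 at D1, 13 at D2 and 20 at D3. At D1 they numbered 3 without a slide term, 3 with only the 2 groups compared, 2 without slide 1 and 3 with the ordinary linear model. At D3 they numbered 17 without slide 4. Leaving out single arrays gave 3 to 7 at D1, where control replicate 1, D1 replicate 4 and D1 replicate 6 each gave 3. With the replicate block in place of slide they numbered 16 at D3, Sec61b at D1 lost its call (-0.57) and Creb3l2 at D1 gained one, and the block changed no other call of the list genes named here. It called 5 members lower at D1, 5 at D2 and 7 at D3. The ATF4 arm had 5 genes called higher at D1 with median centring. With no fold threshold 1 cytosolic heat shock gene was called at D3. The cause of these shifts was not tested.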
